A study of Mus musculus with 8 samples.

Results

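Complement is a cascade of plasma and cell surface proteins that tags and lyses targets and releases peptides that recruit leukocytes. The account covers 9 mouse genes of it: the C1q chains C1qa, C1qb and C1qc, the C1 protease C1ra, the convertase proteases C2 and Cfb, the central component C3, and the receptors C3ar1 and C5ar1. They were taken by symbol, keeping per gene the brightest probe set annotated to that symbol alone. Of the 9 genes, 8 had such a probe set, 1 each, among 18820 genes tested, and C3 is not analysed here. Another 46 complement genes, grouped by role, were read beside them, of which 37 were measured.

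The samples were epididymal white adipose tissue of male C57BL/6 mice, the visceral fat pad along the epididymis. Wild-type mice, bought from the Jackson Laboratories, were set against mice that carried and overexpressed human IL-37 on a C57Bl/6 background, with 4 arrays in each group. IL-37 is an anti-inflammatory cytokine of the interleukin-1 family. Both groups had 2 weeks of run-in on a diet with 10% of energy from fat and then 16 weeks on a high-fat diet with 45%, so no lean animals enter the comparison. The promoter of the transgene and the ages of the mice are not stated in the labels, and the level of the human transgene was not analysed here. Nothing in the labels says that each array was a separate mouse, and each p-value reflects only how these 8 samples spread, a spread that may be technical. The design asks which transcripts differ in the fat of mice on a high-fat diet when human IL-37 is overexpressed.

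Several routes start the cascade. In the classical route, C1q built from its A, B and C chains binds antibody or debris and activates the proteases C1r and C1s, which cleave C4 and C2, while lectins with their own proteases do the same on sugar surfaces. C2 and factor B are related serine proteases that supply the cutting part of the enzyme that splits C3, the first in the classical and lectin routes and the second in the alternative route. The fragments C3a and C5a act on the receptors C3ar1 and C5ar1 of myeloid cells. Macrophages are a known source of C1q in tissues, and adipose tissue of obese mice is rich in them.

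Promoter windows of C1qb, C1qc, C3ar1 and C5ar1 are shown because these genes had lower means in transgenic fat and all are genes of myeloid cells. In the RefSeq gene table of GRCm38.p6, C1qb, C1qc and C1qa follow each other on chromosome 4 with no other protein-coding gene between them, and Cfb and C2 adjoin on chromosome 17. C3ar1 lies on chromosome 6 and C5ar1 on chromosome 7, next to C5ar2. The RefSeq promoter table of the same build held windows from 250 bases before to 50 bases after the start for 6 of the 9 genes. The 4 printed here are C1qb at chr4:136886151-136886450, C1qc at chr4:136892865-136893164, C3ar1 at chr6:122856108-122856407 and C5ar1 at chr7:16259289-16259588, all on the minus strand and printed 5′ to 3′ in the direction of transcription. Capitals mark the core GAGGAA of the binding motif of PU.1, a transcription factor of myeloid cells, or its reverse complement.
C1qb: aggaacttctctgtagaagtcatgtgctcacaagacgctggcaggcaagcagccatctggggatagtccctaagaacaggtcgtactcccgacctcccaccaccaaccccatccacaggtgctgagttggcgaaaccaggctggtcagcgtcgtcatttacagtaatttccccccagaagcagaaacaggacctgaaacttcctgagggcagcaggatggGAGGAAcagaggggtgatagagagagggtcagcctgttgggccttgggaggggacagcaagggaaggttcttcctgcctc
C1qc: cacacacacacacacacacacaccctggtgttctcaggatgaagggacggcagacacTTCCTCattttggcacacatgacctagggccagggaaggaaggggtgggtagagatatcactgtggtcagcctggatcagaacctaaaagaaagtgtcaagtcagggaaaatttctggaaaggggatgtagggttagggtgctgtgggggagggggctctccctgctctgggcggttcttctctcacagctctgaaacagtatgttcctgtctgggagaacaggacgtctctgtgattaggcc
C3ar1: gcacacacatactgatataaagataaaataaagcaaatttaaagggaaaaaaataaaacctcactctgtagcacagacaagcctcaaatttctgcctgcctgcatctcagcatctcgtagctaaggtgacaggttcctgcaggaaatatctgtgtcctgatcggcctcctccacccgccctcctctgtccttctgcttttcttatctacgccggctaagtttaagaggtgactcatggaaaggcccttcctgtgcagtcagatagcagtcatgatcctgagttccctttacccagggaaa
C5ar1: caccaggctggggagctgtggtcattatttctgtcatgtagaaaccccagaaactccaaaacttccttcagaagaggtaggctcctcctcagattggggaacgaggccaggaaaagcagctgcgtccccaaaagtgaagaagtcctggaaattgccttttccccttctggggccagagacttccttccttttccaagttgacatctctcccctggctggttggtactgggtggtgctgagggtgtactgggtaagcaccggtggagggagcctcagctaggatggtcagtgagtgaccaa
The core occurred 1 time in C1qb, in the direction of transcription with its first base 30 bases before the start, and 1 time in C1qc, on the opposite strand, 193 bases before the start. It was not found in the windows of C3ar1 and C5ar1, and 28.3% of all 32851 windows held it on either strand. Of the windows not printed, that of C1ra held the core 1 time and that of C3 did not hold it. The C/EBP pattern TTNNGNAA, present in 40.7% of windows, had 1 match in C1qc and 1 in C5ar1 and none in C1qb or C3ar1. Other patterns were searched too, and their matches are not given here. A match is a run of letters and not a binding site.

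The values are log2 expression per probe set. They are compared only between arrays, since probe sets of different genes differ in brightness for the same amount of RNA. Array medians over all probe sets ran from 5.97 to 6.04, and arrays correlated at 0.980 to 0.996 within groups and 0.971 to 0.991 between them. The mean of 9 adipocyte markers lay between 11.79 and 11.93 in wild-type and between 12.00 and 12.07 in transgenic arrays, and the mean of 3 epididymis markers lay between 3.84 and 4.49. The mean of 12 macrophage markers was 9.58, 9.68, 8.83 and 9.29 in wild-type replicates 1 to 4 and 8.76, 8.79, 8.78 and 8.49 in the transgenic replicates, so wild-type replicate 3 stood with the transgenic arrays. The mean of 4 liver markers was 10.13 in transgenic replicate 3 and between 7.60 and 9.09 in the other 7 arrays.

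None of the 8 measured genes passed the test. With limma and Benjamini-Hochberg adjustment over 18820 genes, 0 of 8 had an adjusted p of 0.05 or less, against 3.34% of all genes, 2.07% higher and 1.27% lower in transgenic fat. At an unadjusted p of 0.05, 6 of the 8 passed, 1 higher and 5 lower, against 20.6% of all genes, 11.2% higher and 9.42% lower. The arrays of the groups did not overlap for 3 of the 8, with C2 higher and C1qb and C3ar1 lower, against 14.0% of all genes, 8.24% higher and 5.73% lower. The median log2 difference, transgenic minus wild type, was -0.49 over the 8 genes and 0.02 over all genes. Below 0 lay 7 of the 8, and 8411 of all 18820 genes. In whole tissue, fewer cells of a type and less RNA per cell cannot be told apart.

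**Figure D1:**
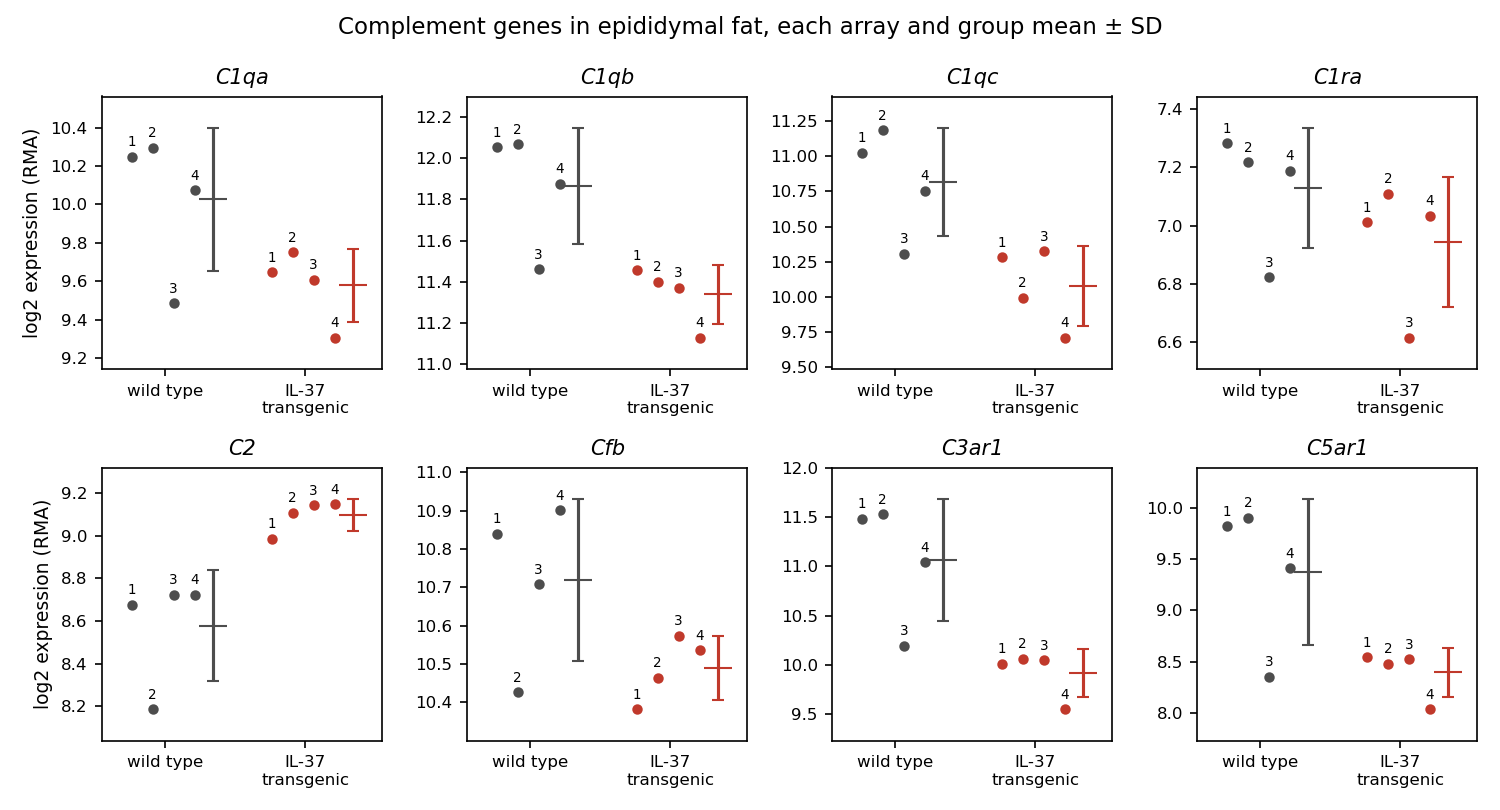
Log2 expression of the 8 measured complement genes on the vertical axes, 1 panel a gene, for 4 wild-type arrays (grey) and 4 IL-37 transgenic arrays (red). Points are arrays with their replicate number, and bars are the group mean ± SD. C2 lies higher in every transgenic array, C1qb and C3ar1 lie lower, and wild-type replicate 3 is the lowest wild-type point for C1q, C1ra and both receptors.

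For each C1q chain, wild-type replicates 1, 2 and 4 lay above every transgenic array. C1qa, the A chain, measured 10.25, 10.29, 9.49 and 10.08 in wild-type replicates 1 to 4 and 9.65, 9.75, 9.61 and 9.31 in the transgenic replicates. Wild-type replicate 3 lay among the transgenic arrays, so the groups overlapped. The mean was 10.03 ± 0.37 (SD, n = 4) against 9.58 ± 0.19 (SD, n = 4), a log2 difference of -0.45 with SE 0.18 and a 95% interval of -0.87 to -0.03 (limma adjusted p = 0.218).

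C1qb, the B chain, measured 12.05, 12.07, 11.46 and 11.88 in wild-type fat and 11.45, 11.40, 11.37 and 11.13 in transgenic fat. The groups did not overlap, but wild-type replicate 3 and transgenic replicate 1 nearly touched. Its mean was 11.86 ± 0.28 (SD, n = 4) against 11.34 ± 0.14 (SD, n = 4), which is 1.44-fold lower, a log2 difference of -0.53 with SE 0.14 and a 95% interval of -0.85 to -0.20 (limma adjusted p = 0.0861).

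C1qc, the C chain, measured 11.02, 11.18, 10.31 and 10.75 in wild-type arrays and 10.28, 9.99, 10.32 and 9.71 in transgenic arrays. Wild-type replicate 3 lay between transgenic replicates 1 and 3, so the groups overlapped. The mean of C1qc was 1.67-fold lower in transgenic fat, a log2 difference of -0.74 with SE 0.21 and a 95% interval of -1.22 to -0.26 (limma adjusted p = 0.0951).

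Across the 8 arrays, the A and B chains had the closest profiles of the C1q chains. After each gene was centred on its own mean, C1qa and C1qb differed by a root mean square of 0.0836 log2 units, C1qb and C1qc by 0.172, and C1qa and C1qc by 0.205. Larger than these were the genes' own spreads about their means, 0.341 for C1qa, 0.327 for C1qb and 0.472 for C1qc. These distances describe 8 arrays that share the genotype difference.

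C1ra, the protease that C1q activates, had the smallest difference of the 8 genes. It measured 7.28, 7.22, 6.82 and 7.19 in wild-type fat and 7.01, 7.11, 6.62 and 7.03 in transgenic fat, where replicate 3 was the lowest array of each group. The log2 difference was -0.19 with SE 0.14 and a 95% interval of -0.50 to 0.13 (limma adjusted p = 0.481). Without transgenic replicate 3 it was -0.08. A probe set shared by C1ra and its paralog C1rb was not used.

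None of the 3 other measured C1 genes passed the test. C1s1, the protease downstream of C1r, had a mean of 9.93 ± 0.16 (SD, n = 4) in wild-type and 9.97 ± 0.21 (SD, n = 4) in transgenic fat, a log2 difference of 0.04 with SE 0.12 (limma adjusted p = 0.879). The median log2 difference of the 3 was 0.04. C1rl, a C1r-like protease singled out after its values were seen, lay between 7.11 and 7.34 in wild-type and between 6.96 and 7.05 in transgenic arrays with no overlap, a log2 difference of -0.20 (limma adjusted p = 0.118).

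The neighbouring convertase genes C2 and Cfb had differences of opposite sign. C2 was the single gene of the 8 with a higher mean in transgenic fat. It measured 8.68, 8.19, 8.72 and 8.72 in wild-type replicates 1 to 4 and 8.99, 9.11, 9.14 and 9.15 in transgenic replicates 1 to 4. Every transgenic array exceeded every wild-type array, and wild-type replicate 2 lay well under the rest of its group. The mean was 8.58 ± 0.26 (SD, n = 4) against 9.10 ± 0.08 (SD, n = 4), 1.43-fold higher, a log2 difference of 0.52 with SE 0.12 and a 95% interval of 0.23 to 0.80 (limma adjusted p = 0.0650). With genes of mean expression below the 25th percentile of all gene means left out, the limma adjusted p of C2 was 0.0489. It was 0.0271 with genes below the median left out and 0.0462 with a trended and robust prior. Other settings did not pass, among them all probe sets tested at 0.0951 and the replicate block at 0.118. With 1 array left out, the limma adjusted p of C2 ran from 0.0503 to 0.14.

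Cfb, which encodes factor B, measured 10.84, 10.43, 10.71 and 10.90 in wild-type fat and 10.38, 10.46, 10.57 and 10.54 in transgenic fat. The transgenic arrays lay within a narrow band that held wild-type replicate 2, under the other 3 wild-type arrays. The log2 difference was -0.23 with SE 0.11 and a 95% interval of -0.47 to 0.01 (limma adjusted p = 0.269).

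The log2 ratio of C2 to Cfb was tighter than either gene. It was -2.16, -2.24, -1.98 and -2.18 in wild-type arrays and -1.39, -1.36, -1.43 and -1.39 in transgenic arrays, so wild-type replicate 2, the lowest wild-type array for both genes, lay with its group for their ratio. The mean ratio was -2.14 ± 0.11 (SD, n = 4) against -1.39 ± 0.03 (SD, n = 4), a difference of 0.75 log2 units. The ratio was chosen after the values were seen and has no test, and its level depends on the brightness of the probe sets, so only the difference between arrays can be read. Of the 7 ratios of the other complement genes measured in full to Cfb, 1 had no overlap, that of C2. Among all 18819 genes set against Cfb the share was 12.0%, so this count is near it. C2 also had no overlap in its ratio to each of the other measured genes, and 10 of the 28 pairs had none. The separation is thus not particular to the ratio with Cfb. With each array left out in turn the difference of the C2 to Cfb ratio ran from 0.72 to 0.80.

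**Figure D2:**
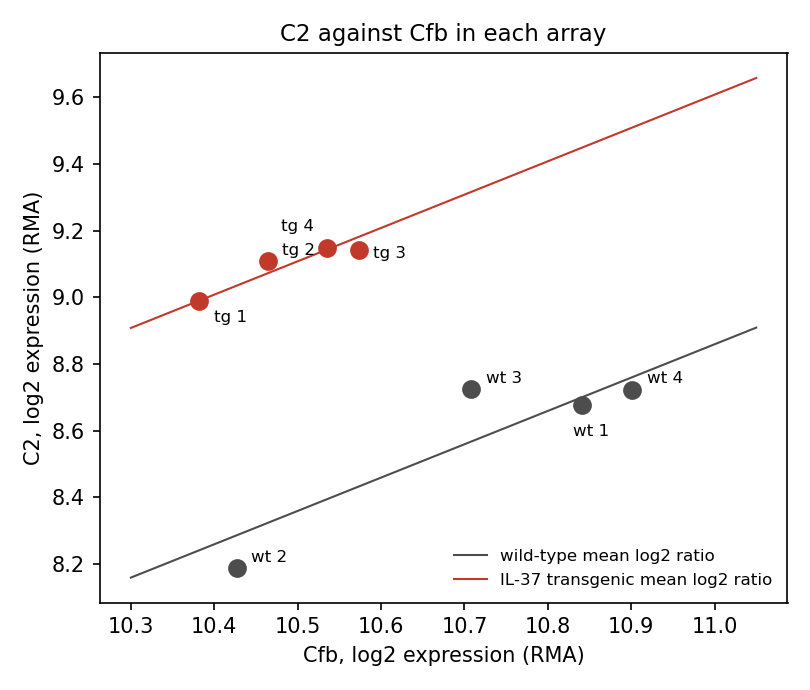
Log2 expression of C2 on the vertical axis against Cfb on the horizontal axis for each array, wild type in grey and IL-37 transgenic in red, with replicate numbers. Each line marks the group's mean log2 ratio of C2 to Cfb, -2.14 in wild type and -1.39 in transgenic fat, and the transgenic arrays lie along theirs while no wild-type array reaches it.

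The other convertase components measured were C4a and properdin. Cfp, which encodes properdin, the protein that steadies the alternative convertase, was 9.79 ± 0.27 (SD, n = 4) in wild-type and 10.00 ± 0.20 (SD, n = 4) in transgenic fat (limma adjusted p = 0.468). C4a, singled out after its values were seen, had a log2 difference of -0.40 (limma adjusted p = 0.201), and its probes may also bind RNA of the near-identical C4b, which is not analysed here.

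The receptors of the released peptides had the largest differences of the 8 genes. C3ar1, the C3a receptor, measured 11.49, 11.53, 10.19 and 11.04 in wild-type fat and 10.01, 10.06, 10.05 and 9.55 in transgenic fat. No transgenic array reached the lowest wild-type array, replicate 3, which was nearer to the transgenic group than to its own. The mean was 11.06 ± 0.62 (SD, n = 4) against 9.92 ± 0.25 (SD, n = 4), 2.21-fold lower, a log2 difference of -1.15 with SE 0.29 and a 95% interval of -1.81 to -0.48 (limma adjusted p = 0.0726).

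C5ar1, the C5a receptor of neutrophils and macrophages, measured 9.82, 9.90, 8.36 and 9.41 in wild-type fat and 8.54, 8.48, 8.52 and 8.04 in transgenic fat. Here wild-type replicate 3 lay below 3 of the 4 transgenic arrays, and the other wild-type arrays lay above all of them. The mean was 9.37 ± 0.71 (SD, n = 4) against 8.40 ± 0.24 (SD, n = 4), 1.97-fold lower, a log2 difference of -0.97 with SE 0.32 and a 95% interval of -1.72 to -0.23 (limma adjusted p = 0.140). Without wild-type replicate 3 the differences were -1.44 for C3ar1 and -1.31 for C5ar1 (limma adjusted p = 0.00923 and 0.0103), and C1qa, C1qb and C1qc also passed at -0.63, -0.66 and -0.91 (limma adjusted p = 0.025, 0.0142 and 0.0265). That replicate held the lowest wild-type value for all 5 genes, so leaving it out was bound to widen them.

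C3ar1 and C5ar1 had like profiles across arrays. Their centred profiles differed by a root mean square of 0.109 log2 units, against own spreads of 0.704 for C3ar1 and 0.670 for C5ar1, and C3ar1 was the third nearest of all genes to C5ar1. The log2 ratio of C3ar1 to C5ar1 was 1.69 ± 0.10 (SD, n = 4) in wild-type and 1.52 ± 0.05 (SD, n = 4) in transgenic fat. It had no overlap, as was so for 10 of the 28 pairs of the measured genes, and the share over all genes was not computed. This ratio was chosen after the values were seen and not tested.

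Of 6 other complement receptors, 0 passed the test and the median log2 difference was -0.71. An unadjusted limma p of 0.05 or less was seen for 4, all lower, against 20.6% of all genes, 9.42% lower. Itgb2, the beta chain of complement receptors 3 and 4, was 9.78 ± 0.57 (SD, n = 4) in wild-type and 9.03 ± 0.36 (SD, n = 4) in transgenic fat. Its log2 difference was -0.75 with SE 0.29 (limma adjusted p = 0.198). With the letter in the array names as a block it was -0.0093, which rests on transgenic replicate 1 against wild-type replicates 3 and 4 alone. The remaining receptors named here were singled out after their values were seen. C5ar2, a further C5a receptor and the neighbour of C5ar1, differed by -0.69 (limma adjusted p = 0.196). Vsig4, a macrophage receptor for C3b, differed by -0.74 with no overlap (limma adjusted p = 0.118), and Itgax, the alpha chain of complement receptor 4, by -1.23 (limma adjusted p = 0.138). Integrin chains serve in leukocyte adhesion as well as in complement binding.

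**Figure D3:**
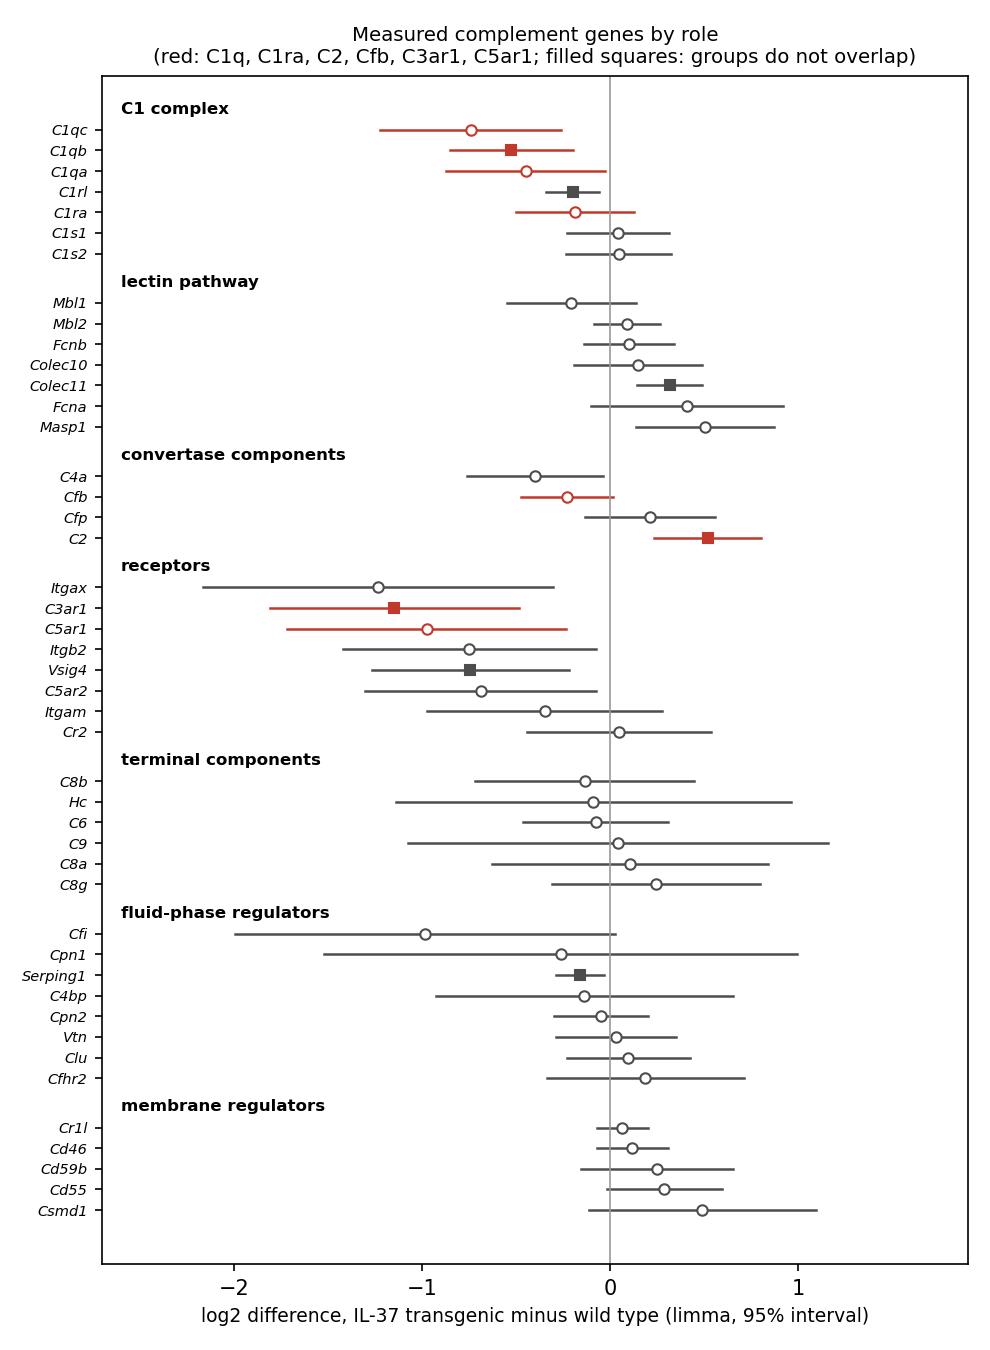
Log2 difference, IL-37 transgenic minus wild type, with its 95% interval on the horizontal axis for the 45 measured complement genes, grouped by role. Red marks the 8 genes described in full, and filled squares mark genes whose groups did not overlap. Receptors lie mostly left of 0, with a median of -0.71 for the 6 grey ones, and the 5 membrane regulators lie right of it, although none passed the test.

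Macrophage markers also had lower means in transgenic fat. Of the 12 macrophage markers, 11 had a negative log2 difference, as had 8411 of all 18820 genes. By the same test 2 fell, Cx3cr1 at -0.63 (limma adjusted p = 0.0231) and Fcgr1 at -1.09 (limma adjusted p = 0.0469). Over all genes, 1.27% were called lower and 2.07% higher. The call was lost for Cx3cr1 in 4 of 14 alternatives and 6 of 8 fits with 1 array left out, and for Fcgr1 in 7 of 14 and 7 of 8. Of the 5 measured markers of lipid-associated macrophages, 2 fell, Trem2 at -2.02 (limma adjusted p = 0.0454) and Ctsk at -1.25 (limma adjusted p = 0.0496), calls lost in 6 and 9 of 14 alternatives and each in 7 of 8 fits with 1 array left out. The list mean of these 5 was 10.77, 10.91, 9.05 and 10.24 in wild-type and 8.78, 8.87, 8.52 and 7.25 in transgenic arrays. Wild-type replicate 3 was again the wild-type array nearest to the transgenic group.

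Not every marker of macrophages was lower. Of 8 markers of resident macrophages, 5 had a positive and 3 a negative log2 difference. By the same test 2 rose in transgenic fat, Cd163 by 0.77 log2 units (limma adjusted p = 0.0212) and Retnla by 1.33 (limma adjusted p = 0.00535). Calls in this list and those below stand beside 2.07% of all genes called higher and 1.27% lower. Mrc1, singled out after its values were seen, differed by -0.37 (limma adjusted p = 0.124). The resident list mean lay between 9.20 and 9.51 in wild-type and between 9.54 and 9.90 in transgenic arrays. Retnla, with the largest difference of the 8, added most to that gap. The list was not read without Retnla, so the gap does not show that the other markers separate as a set. Single genes had no overlap in 3 of the 8, all higher, against 8.24% of all genes. The median log2 difference of the 8 was 0.28. The Cd163 call was lost in 4 of 14 alternatives and 4 of 8 fits with 1 array left out, and the Retnla call in 2 of 14 and 0 of 8. Of 5 measured neutrophil markers, 2 fell, S100a8 at -1.51 (limma adjusted p = 0.0280) and Csf3r at -0.46 (limma adjusted p = 0.0201), calls lost in 4 of 14 and 5 of 13 alternatives and in 6 and 5 of 8 fits with 1 array left out. The neutrophil list mean lay between 5.11 and 5.21 in wild-type and between 4.65 and 4.86 in transgenic arrays, a gap to which S100a8 added most. The remaining neutrophil markers S100a9, Cxcr2 and Mmp8, named after their values were seen, differed by -0.08, 0.07 and -0.20. Of the 5, 2 had means below the 25th percentile of all gene means. Of 9 adipocyte markers, 2 rose, Adipoq by 0.30 log2 units (limma adjusted p = 0.0309) and Slc2a4 by 0.74 (limma adjusted p = 0.0188), calls lost in 6 and 5 of 14 alternatives and in 7 and 4 of 8 fits with 1 array left out. The T cell markers were mixed. Of the 5 measured, Themis fell at -1.56 (limma adjusted p = 0.00535), a call lost in 2 of 13 alternatives and in none of the 8 fits with 1 array left out. Cd2 differed by 0.57 with no overlap (limma adjusted p = 0.0608) and Cd3e, Cd3d and Cd3g by -0.21, -0.11 and -0.04, all 4 singled out after their values were seen.

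Each gene was also read as a log2 ratio to the mean of the 12 macrophage markers in the same array. Transgenic minus wild type, this ratio differed by 0.19 for C1qa, 0.12 for C1qb and -0.10 for C1qc. The C1qa ratio lay between 0.61 and 0.79 in wild-type and between 0.82 and 0.96 in transgenic arrays, above it without overlap. For C3ar1 it differed by -0.51, from 1.36 to 1.91 in wild-type and from 1.06 to 1.27 in transgenic arrays, again with no overlap, and for C5ar1 by -0.33 with overlap. The C2 ratio was higher by 1.16, from -1.49 to -0.11 in wild-type and from 0.23 to 0.66 in transgenic arrays. Those of Cfb and C1ra were higher by 0.41 and 0.46 with overlap. The share of all genes whose ratio does not overlap was not computed. The marker mean itself lay lower in transgenic arrays, from 8.49 to 8.79 against 8.83 to 9.68 in wild-type arrays, with no overlap. A gene that fell less than this mean thus comes out higher. With that mean as a covariate in the limma fit, the median difference over the 8 genes was 0.01, with C2 at 0.26 and C3ar1 at -0.10. Limma adjusted p lay between 0.361 and 0.916, and the SE of C2 was 0.172 against 0.124 without the covariate. Since the marker mean does not overlap between the genotypes, this fit cannot reliably tell marker level from genotype. The part of macrophage number in these differences was not tested.

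**Figure D4:**
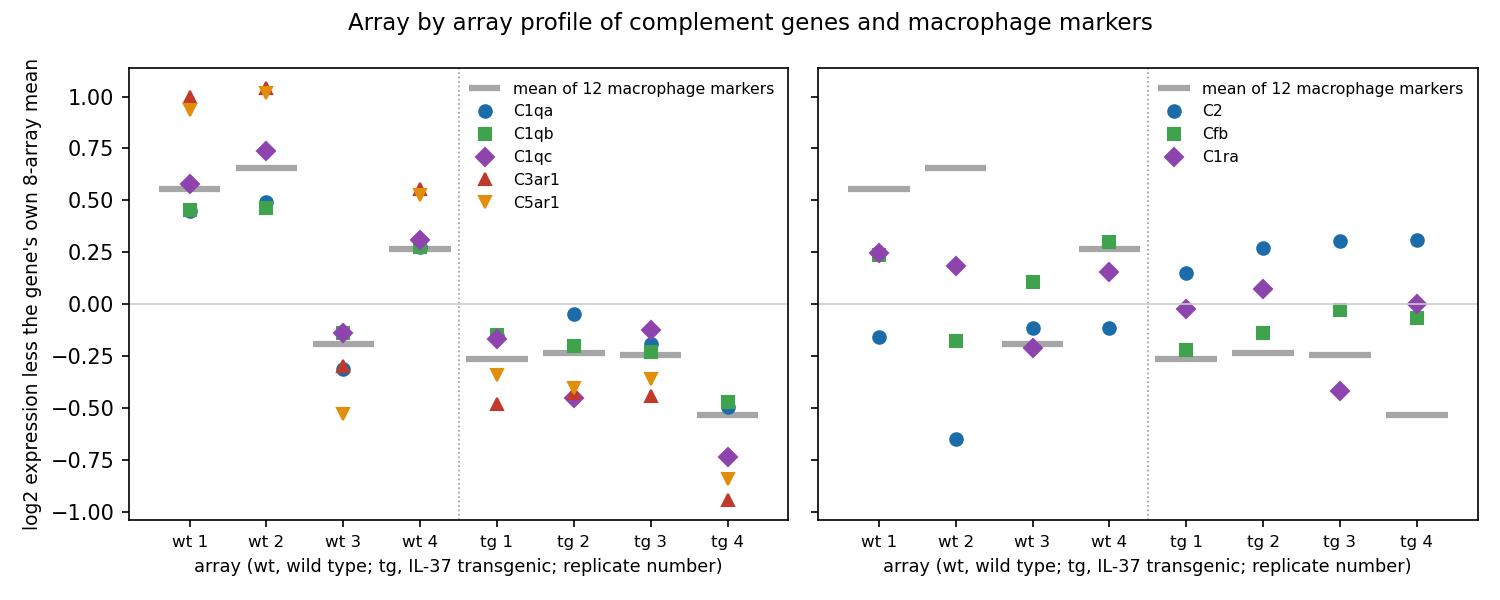
Log2 expression less each gene's own mean over 8 arrays, for the C1q chains and the receptors on the left and C2, Cfb and C1ra on the right, by array (wt, wild type, tg, IL-37 transgenic). Grey bars give the centred mean of 12 macrophage markers. The left-hand genes lie on the same side of 0 as the grey bar in every array, and C2 lies below 0 in every wild-type array and above it in every transgenic array.

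The genes with the nearest array profiles were named by the root mean square difference over the 8 centred values. For C1qa they were Inpp5d at 0.0457, Plekho1 at 0.0461 and Slc39a11 at 0.0486. For C1qb they were Plekho1 at 0.0430, Laptm5, itself one of the macrophage markers, at 0.0449 and Wdr91 at 0.0502. C1qc was nearest to Runx1 at 0.0608, Tcirg1 at 0.0746 and Fermt3 at 0.0817. Plekho1 was thus shared by the A and B chains, and none of the 3 nearest genes was shared with the C chain. The distances are not scaled to a gene's own spread, which was 0.472 for C1qc, larger than 0.341 for C1qa and 0.327 for C1qb.

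C3ar1 was nearest to Clec12a at 0.0745, Cd300c2 at 0.0763 and Myo1e at 0.0879, and C5ar1 to Myo1f at 0.0996 and Anpep at 0.108 before C3ar1. The convertase genes had other neighbours. C2 was nearest to Pacsin3 at 0.0605, Phyh at 0.0693 and Grhpr at 0.0884, against a spread of its own of 0.308, and Cfb to Pla2g4e at 0.0624, Ace at 0.0753 and Vmn2r79 at 0.0825, against 0.181. C1ra was nearest to Fadd at 0.0693, Plod3 at 0.0803 and Alg13 at 0.0815, against 0.208. The smaller a gene's own spread, the less such a distance sets it apart.

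Of the 7 measured lectin route genes, 6 had a positive log2 difference, as had 10409 of all 18820 genes. Their median was 0.15, and 0 of the 7 passed the test. Fcna, which encodes ficolin A, was 7.46 ± 0.48 (SD, n = 4) in wild-type and 7.86 ± 0.16 (SD, n = 4) in transgenic fat (limma adjusted p = 0.342). After its values were seen, Colec11, a collectin, was singled out at 6.02 ± 0.09 (SD, n = 4) against 6.34 ± 0.11 (SD, n = 4) with no overlap, a log2 difference of 0.32 with SE 0.076 (limma adjusted p = 0.0649). Likewise Masp1, the protease that rides on these lectins, was 5.47 ± 0.25 (SD, n = 4) against 5.98 ± 0.26 (SD, n = 4) with overlap (limma adjusted p = 0.127).

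None of the measured regulators passed the test. Serping1, the C1 inhibitor, was 12.10 ± 0.05 (SD, n = 4) in wild-type and 11.94 ± 0.07 (SD, n = 4) in transgenic fat with no overlap, a log2 difference of -0.16 with SE 0.056 (limma adjusted p = 0.159). The median over the 8 measured regulators in the fluid phase was -0.09. All 5 measured membrane regulators, which shield host cells, had a positive log2 difference between 0.06 and 0.49, with 0 past the test. A positive difference was seen for 10409 of all 18820 genes. Among the membrane regulators Cd55, the decay accelerating factor, was 8.60 ± 0.19 (SD, n = 4) against 8.89 ± 0.23 (SD, n = 4) (limma adjusted p = 0.267). With the letter in the array names as a block, its log2 difference was -0.01, from transgenic replicate 1 against wild-type replicates 3 and 4 alone.

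None of the 6 measured terminal genes, whose proteins form the membrane attack complex, passed the test, and 1 array stood apart. C9 measured 4.28, 3.82, 4.71 and 4.70 in wild-type fat and 3.85, 3.93, 6.00 and 3.90 in transgenic fat, and Hc, the gene of C5, 4.74, 4.58, 4.98 and 5.03 against 4.21, 4.39, 6.30 and 4.08. Transgenic replicate 3 was the highest of all 8 arrays for both, as it was for C8a, C8b and C8g at 5.49, 5.58 and 7.06, and for the mean of the 4 liver markers. C6 was not, at 9.74 in that array and 9.68 ± 0.06 (SD, n = 4) over its group against 9.76 ± 0.38 (SD, n = 4) in wild-type fat (limma adjusted p = 0.836). Apart from C6, the terminal genes were singled out after their values were seen. The origin of these values was not tested, and leaving that array out took no gene of the 8 past the test.

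**Figure D5:**
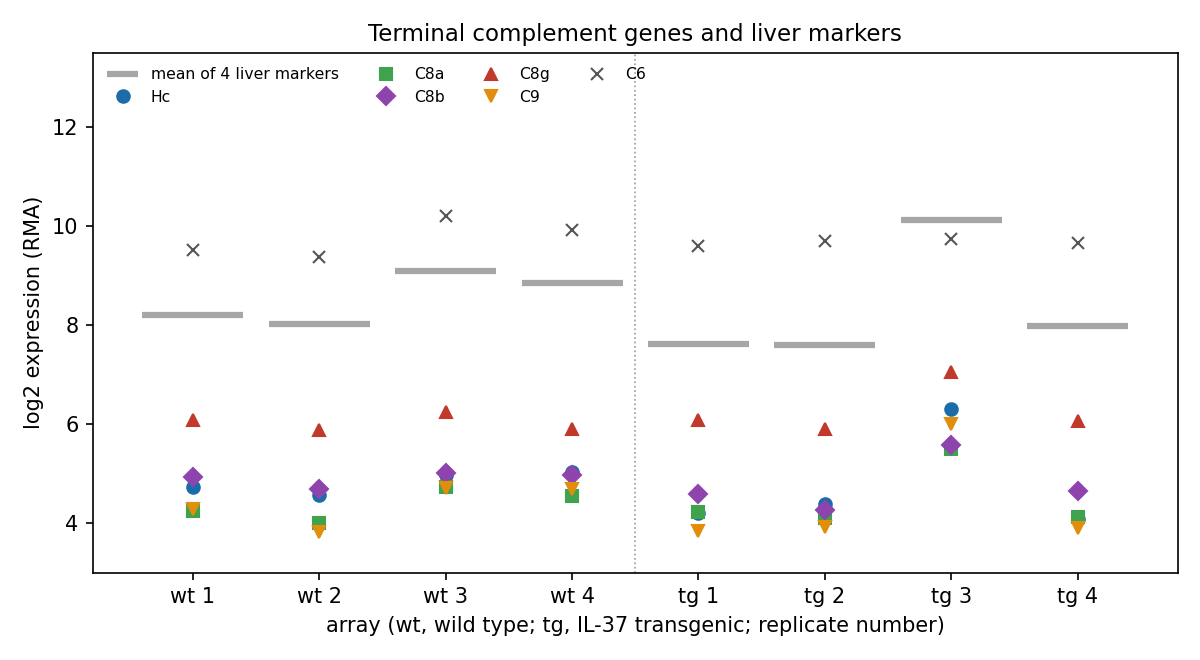
Log2 expression of 6 terminal complement genes (symbols) and the mean of 4 liver markers (grey bars) by array (wt, wild type, tg, IL-37 transgenic). In transgenic replicate 3 the liver mean is 10.13 and Hc, C8a, C8b, C8g and C9 are at their highest, while C6 is not.

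Over the 37 other complement genes, 0 passed the limma test after adjustment, 2 had an unadjusted p of 0.05 or less with a higher mean and 7 with a lower one. These 9 stand beside 20.6% of all genes. The groups did not overlap for 1 higher and 3 lower genes, beside 14.0% of all genes. Their log2 differences ran from -1.23 to 0.50 with a median of 0.04, beside 0.02 over all genes and -0.49 over the 8.

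The array names carry a letter and a number that the labels do not explain, and differences were read within them. Among arrays numbered 5, 7 and 9, the log2 difference of C2 was 0.38, 0.44 and 0.88, that of C3ar1 was -0.13, -1.22 and -1.75, and that of C1qb was -0.06, -0.59 and -0.78. All 3 kept their sign, as did C1qc. The sign turned for C1qa, C1ra and C5ar1, at 0.27, 0.29 and 0.12 in the arrays numbered 5, which hold wild-type replicate 3 and transgenic replicate 2, and for Cfb, at 0.03 in those numbered 9. Among arrays with the letter G, the single letter with both groups, the differences were 0.26 for C2, -0.61 for C3ar1 and -0.21 for C1qb. The macrophage marker mean differed by -0.04, -0.66 and -1.06 within the numbers 5, 7 and 9. Each of these sets holds 2 or 3 arrays and allows no test.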

How the data were processed

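Epididymal fat RNA was measured on 8 arrays. The labels give no animal numbers, so each of the 8 single-colour arrays was taken as 1 sample, 4 per genotype. The authors deposited log2 values for each probe set and, per the submitters' processing notes, made them with RMA, which gives all arrays nearly the same distribution and thereby hides any shift common to the genes. The RMA version and settings were not given in the sources used. The platform annotation gave 1 gene symbol to 21218 of 35556 probe sets, several to 1881 and none to 12457, which left 18820 genes. Symbols of 21185 of the 21218 were found through their gene identifiers. Each gene was fitted on genotype by lmFit with a two-sided eBayes test and no filter (limma 3.58.1, R 4.3.3), with Benjamini-Hochberg adjustment over all genes and a threshold of 0.05. Folds are 2 to the power of the log2 difference. Intervals are at 95%. Precision is limited by having 4 arrays a group.

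The complement genes and all lists were chosen with earlier results of these data known. Named genes were the 9 genes, other complement genes past the threshold, the one with the highest mean in each role, the 3 nearest profiles of each gene and cell type markers past the threshold. Any other gene is said to have been singled out. The limma step was tested on simulated data. Alternatives are given at the end. Protein sequences were not used here.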

Additional observations from a re-analysis of the deposited data

Results flagged for a closer look

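In 8 of 72 groups of 4 arrays examined, over single genes and list means, the highest or lowest array lay far from the other 3. Chance alone gives about 1 in 20.

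C2 measured 8.19 in wild-type replicate 2 and between 8.68 and 8.72 in the other wild-type arrays. Transgenic replicate 4 was the lowest of its group for C3ar1, at 9.55 against 10.01 to 10.06, and for C5ar1, at 8.04 against 8.48 to 8.54. The mean of the 8 measured complement receptors was 7.58 in that array against 8.02 to 8.09, and the mean of the 12 macrophage markers was 8.49 against 8.76 to 8.79. The C3ar1, C5ar1, receptor and macrophage values thus come from 1 array and are not independent of each other.

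Transgenic replicate 3 had a mean of 6.69 over the 6 measured terminal complement genes, against 5.38 to 5.43 in the other transgenic arrays. In the same array the mean of the 4 liver markers was 10.13 against 7.60 to 7.98, and the mean of the 6 mesothelial markers was 7.86 against 8.32 to 8.40.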

How the results depend on the processing

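The count of 0 of 8 complement genes past the threshold was the same with quantile normalisation repeated and with arrays centred on their medians. It also held with both other choices of probe sets and with the number in the array names as a block. Nor did it change with the macrophage marker mean as a covariate or with both transgenic arrays of names ending in 2 left out. It was 1 with genes under the 25th percentile of gene means left out and 1 with a trended and robust prior (C2 each time), 4 with genes under the median left out and 4 at a threshold of 0.1 (C2, C1qb, C1qc and C3ar1 each time), 4 with array weights (C1qb, C1qc, C3ar1 and C5ar1), and 0 to 5 with 1 array left out, 5 without wild-type replicate 3. Among the other complement genes the count was 1 with the 25th percentile filter, 1 at a threshold of 0.1, and 0 to 3 with 1 array left out, 3 of them with wild-type replicate 3 and 1 with transgenic replicate 3 as the one omitted. With the replicate block the count for both lists was 0 and the median difference -0.49. The block took the count over the whole table from 629 to 93, but the numbers were not taken to pair the arrays, since deviations from the group means correlated at 0.057 to 0.102 between arrays of 1 number and only replicate 4 correlated best with its own. That count was 72 with the number as a block, 1295 with the median filter, 1263 with array weights and 1537 at 0.1. It was 18 with both arrays of names ending in 2 left out and 82 to 1188 with 1 array left out. The letter as a block compares the genotypes only in the arrays of letter G, transgenic replicate 1 against wild-type replicates 3 and 4. Only differences are given for that block here, and the alternatives counted for the marker calls include it. The median difference of -0.49 was -0.23 with the letter as a block, 0.013 with the macrophage covariate and -0.64 to -0.41 with 1 array left out. Signs turned with the macrophage covariate for C1qa (0.19), C5ar1 (0.19), C1ra (0.064) and Itgb2 (0.27), and with the letter as a block for C1ra (0.0061) and Cd55 (-0.0052). They also turned for C1s1 with both arrays of names ending in 2 left out (-0.013). With 1 array left out, C1s1 ran from -0.048 (transgenic replicate 2) to 0.11, negative also without wild-type replicate 3 (-0.014), and C6 from -0.20 to 0.071 (wild-type replicate 3). The C2 to Cfb ratio difference, followed through settings chosen after seeing the data, ran from 0.60 with the covariate to 0.78 over the alternatives with all arrays. The macrophage covariate did not overlap between the genotypes, so its fit cannot reliably tell marker level from genotype. The cause of these moves was not tested.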

Other observations

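The other cell types whose markers were read had list means that overlapped between the genotypes, apart from the T cell list. The mean of 7 progenitor and fibroblast markers lay between 9.99 and 10.20 in wild-type arrays and between 9.87 and 10.19 in transgenic arrays, and that of 4 endothelial markers between 10.33 and 10.56 and between 10.42 and 10.58. The 6 mesothelial markers gave 7.40 to 8.63 and 7.86 to 8.40, 5 mast cell markers 6.45 to 7.07 and 6.11 to 6.89, and 4 B cell markers 5.95 to 7.49 and 6.33 to 7.28. The 5 measured T cell markers gave 6.06 to 6.48 in wild-type and 5.87 to 6.05 in transgenic arrays, but with Themis left out, a choice made after seeing the data, the other 4 gave 6.01 to 6.47 and 6.13 to 6.32, which overlap. The 2 measured red blood cell markers gave 6.29 to 7.21 and 6.86 to 8.02. None of the markers of these types passed the limma test except Themis.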
